A study of Mus musculus with 6 samples.

Results

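Oxidative phosphorylation is carried out by a chain of multi-subunit complexes in the inner mitochondrial membrane, and most of their subunits are encoded in the nucleus. The genes described here are 31 such nuclear genes of the mouse, taken by their Ensembl gene identifiers from the 39179 genes counted in each library. They comprise 11 genes listed for complex I, 4 for complex II, 4 for complex III, the electron carrier cytochrome c, 7 for complex IV and 4 for complex V. Every one of the 31 was found in the files, on 18 chromosomes in all.

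The RNA came from B16-F10, a melanoma line from C57BL/6 mice grown in culture, and was sequenced after poly(A) selection in 3 libraries of cells with the intact gene (genotype Sirpa-wild type, here Sirpa-WT) and 3 of cells with the gene knocked out (here Sirpa-KO). Sirpa encodes SIRPα, a membrane receptor that binds CD47, and the comparison asks how the steady-state transcriptome differs with and without an intact Sirpa gene. The labels do not say how the knockout was made, whether it is 1 clone or a pool, or whether each replicate was a culture of its own, so the p-values rest on a spread between libraries that may be technical. One label field names the line Pmel and gives tumor as the tissue, which differs from the culture named in the series text.

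Complex I oxidises NADH and passes its electrons to ubiquinone, and complex II does the same for succinate as a step of the citric acid cycle. Complex III carries the electrons from ubiquinol to cytochrome c, complex IV from cytochrome c to oxygen, and complex V uses the resulting proton gradient to make ATP. Many of the smaller subunits have short, abundant mRNAs that have been copied back into the genome as processed pseudogenes, so reads of such a gene and of its copies can be hard to tell apart.

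Depth set what could be seen. Total counts were between 338824 and 411695 in 5 libraries, called shallow here, and 29877270 in the library labelled Sirpa-KO replicate 1, called deep, which was 82.6 times the shallow mean. Levels are given as CPM, a gene's counts with every library scaled to the same total, and 1 count equals 2.43 to 2.95 CPM in the shallow libraries. Processed pseudogenes took 26.5% to 29.7% of counts in the shallow libraries and 0.177% in the deep one, so the comparison was fitted with it (6 libraries) and without it (5 libraries), and values named gene by gene are from 5 libraries unless stated. Sirpa itself had 12, 7 and 3 counts (29.1, 20.4 and 8.68 CPM) in Sirpa-WT replicates 1 to 3, and 1584, 6 and 6 counts (53.0, 17.7 and 16.3 CPM) in replicates 1 to 3 of Sirpa-KO. It was highest in the deep library, which is labelled knockout, so it gives no check of the labels. Summed CPM of 7 melanocyte markers was 15960 to 19092 in Sirpa-WT, 12626 and 12990 in the shallow Sirpa-KO libraries, without overlap, and 15519 in the deep one. Of these 7, Mitf, Pmel and Dct were called lower over 5 libraries and none over 6 (edgeR), and their part in the results below was not tested. The leukocyte markers Ptprc and Cd3e had 0 counts in every shallow library, Itgam had 3 to 9 and Lyz2 0 to 2 (1 and 85 in the deep one). In each shallow library 5 fibroblast markers together had at most 5 counts, and 3 endothelial markers had 0 (179 and 6 in the deep one). Among the 31 subunit genes the median count in a shallow library was 30, from 2 for Uqcrfs1 to 420 for Atp5b, and 28 genes stayed under 100 counts in every shallow library. Counts in the deep library ran from 2189 for Ndufs3 to 54831 for Atp5b.

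Between the genotypes 1 subunit gene was called over 5 libraries, Ndufa2 of complex I, which was lower in Sirpa-KO. Over 5 libraries edgeR's quasi-likelihood test, with Benjamini-Hochberg adjustment over 5510 genes, called 1 of the 29 subunit genes that passed the count filter, at an adjusted p under 0.05. The background was 4.52% of all genes tested called lower and 1.32% called higher, so 1 gene lower (3.45%) and 0 higher is near the background. At an unadjusted p under 0.05 there were 4 higher (Ndufb3, Ndufb8, Cycs and Atp5o), 13.8% of those tested against a background of 8.95%, and 1 lower against 11.9%. The fitted log2 fold change of Sirpa-KO over Sirpa-WT was above 0 for 21 of 29 genes, where 51.2% of all genes were above 0 and 48.8% below, and its median was 0.17, where the median of all genes was 0.013. When the trend of each library along the ratio of the deep library to the others was removed, 12 of 29 were above 0 and the median was -0.064. When libraries were scaled by total counts alone, 25 of 29 were above 0, the median was 0.31 with that of all genes at 0.15, and edgeR called 4 genes higher, Ndufb3, Cycs, Atp5b and Atp5o.

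Over 6 libraries edgeR called none of 5397 genes (at an unadjusted p under 0.05 there were 254 higher, 4.71%, and 90 lower, 1.67%), DESeq2 called 1 gene that was not a subunit gene, and the smallest adjusted p among the subunit genes was 0.574 by edgeR. There 28 of 29 fitted changes were above 0, where 52.7% of all genes were above and 47.3% below, with a median of 0.63 against 0.11 over all genes. With protein-coding genes only, 25 of 29 were above 0 and the median was 0.35 (all genes 0.13), and with pseudogene counts added to the parent gene it was 0.40 over 30 genes tested. Of the 29, 4 were higher at an unadjusted p under 0.05 over 6 libraries. The fitted log2 changes were then 1.74 ± 0.62 for Ndufb8, 1.69 ± 0.61 for Cycs, 1.10 ± 0.42 for Atp5o and 0.95 ± 0.34 for Ndufb3 (SE; edgeR, adjusted p = 0.574 for each). Over 14 alternatives to this fit they ran from 0.88 to 2.05 for Ndufb8 and from 0.097 to 2.01 for Cycs. For Atp5o and Ndufb3 the ranges were 0.32 to 1.39 and 0.72 to 1.20. Ndufa4 went from 0.10 over 5 libraries to 1.13 ± 0.65 over 6. By complex the 6-library medians were 0.73 for complex I, 0.55 for II, 0.89 for III, 0.63 for IV and 0.61 for V. The depth and composition of the deep library moved with these values, and their part in them was not tested.

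**Figure D1:**
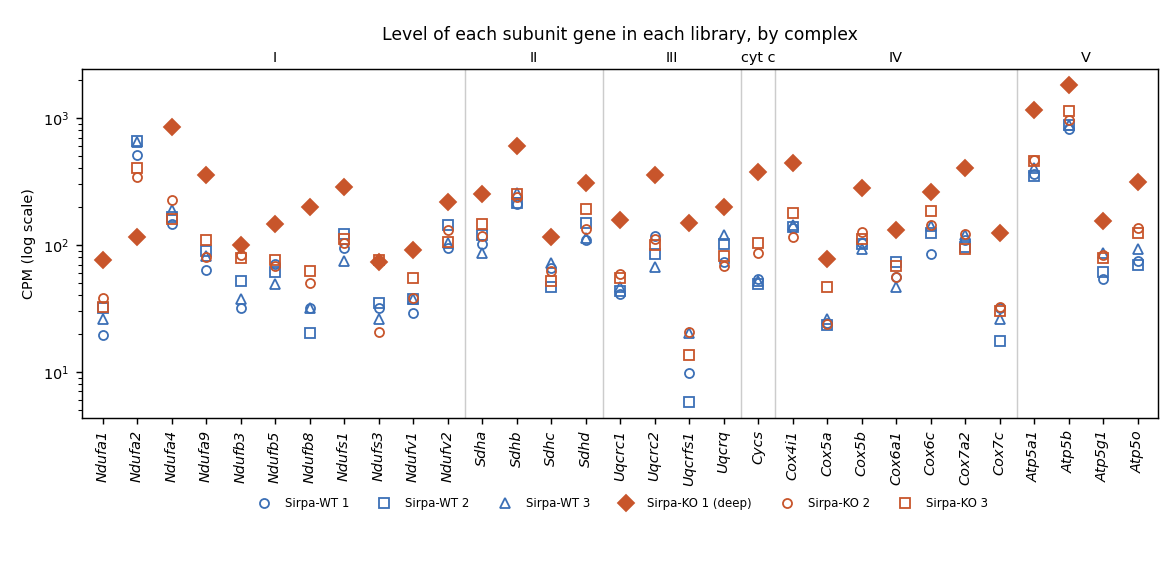
Level of the 31 subunit genes in each of the 6 libraries, in CPM on a log axis, grouped by complex from left to right (I, II, III, cytochrome c, IV and V). Blue symbols are Sirpa-WT, open red symbols are Sirpa-KO replicates 2 and 3, and the filled diamond is the deep library, which sits above all shallow libraries for 29 genes and below them for Ndufa2 only.

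Ndufa2 encodes a small accessory subunit of the matrix arm of complex I, and its gene lies on chromosome 18 (36742332 to 36744557, minus strand, GRCm38). Its counts were 210, 227 and 223 in the Sirpa-WT libraries and 116 and 148 in Sirpa-KO replicates 2 and 3, which is 510, 660 and 645 CPM against 342 and 403 CPM. The deep library had 3475 counts, or 116 CPM. All Sirpa-KO libraries were thus below all Sirpa-WT libraries, and the deep one was the lowest. The mean was 605 ± 82.7 CPM in the Sirpa-WT libraries (SD, n = 3) and 372 ± 42.6 CPM in the shallow knockout libraries (SD, n = 2), a log2 change of -0.81 ± 0.14 (SE; edgeR, adjusted p = 5.99e-07). This call held under all 14 other settings of the 5-library fit, with values from -0.95 to -0.56, the latter after the trend along the deep library's ratio was removed (edgeR, adjusted p = 0.00252). Over 6 libraries the value was -1.21 ± 0.54 (SE; edgeR, adjusted p = 0.574).

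Of the exon bases of Ndufa2, 10.5% are shared with Tmco6, which is read from the opposite strand, and strand was not used in counting. Tmco6 had 0 counts in 4 shallow libraries, 1 in Sirpa-KO replicate 3 and 169 in the deep library. Only 1.64% of the 25-base words of Ndufa2 also occur in annotated processed pseudogenes, and no copy of it was found among the counted genes. In the Sirpa-WT libraries Ndufa2 made up 47.2% of the summed CPM of the 11 complex I genes, which was 30.4% in the shallow knockout libraries and 4.64% in the deep one.

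The other 10 complex I genes gave no call, and 9 of the 11 fitted changes over 5 libraries were above 0, with a median of 0.17. Ndufb3, a small membrane-arm subunit, came nearest to the threshold. It had 13, 18 and 13 counts in the Sirpa-WT libraries, compared with 28 and 29 in the shallow knockout libraries, or 31.6, 52.4 and 37.6 CPM against 82.6 and 78.9 CPM. The groups did not overlap, and the deep library was higher again at 99.9 CPM. The fitted log2 change was 0.89 ± 0.30 (SE; edgeR, adjusted p = 0.0506), and without Sirpa-WT replicate 2, the highest of its group, it was 1.10 (edgeR, adjusted p = 0.0343). Leaving out the highest library of that group had to raise the value, so this is no separate evidence. Over 14 alternatives Ndufb3 ran from 0.72 to 1.10, and 2 of the 13 adjusted p-values given were under 0.05. A share of 18.4% of its words occurs in processed pseudogenes.

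Ndufb8, another membrane-arm accessory subunit, had 13, 7 and 11 counts in the Sirpa-WT libraries, compared with 17 and 23 in the shallow knockout libraries. In CPM these are 31.6, 20.4 and 31.8 against 50.2 and 62.6, with 200 in the deep library. The groups were again apart, at a log2 change of 0.88 ± 0.35 (SE; edgeR, adjusted p = 0.118). With so few counts the difference could not be separated from the spread after adjustment over all genes.

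Ndufs1, Ndufs3, Ndufv1 and Ndufv2 encode core subunits of complex I that take part in NADH oxidation or electron transfer in the peripheral arm. Their fitted values over 5 libraries were 0.026, 0.55, 0.31 and -0.061, with adjusted p from 0.391 to 0.968 by edgeR. Ndufs3 had 13, 12 and 9 counts in Sirpa-WT but 7 and 28 in the shallow knockout libraries, which lay on either side of the Sirpa-WT values. Its fitted value therefore turned from 1.15 to -0.70 depending on which of these libraries was left out. It was the only gene of the 31 for which the deep library, at 73.3 CPM, fell inside the shallow range.

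Ndufa1, an X-linked subunit needed for assembly of the complex, and Ndufa9, which sits at the junction of the arms, had fitted log2 changes of 0.35 ± 0.42 and 0.17 ± 0.26 (SE; edgeR, adjusted p = 0.694 and 0.765). Ndufb5 stood at 0.13 ± 0.28 (SE; edgeR, adjusted p = 0.850). Ndufa4, named as a complex I subunit and since reassigned to complex IV, had 146, 166 and 188 CPM in Sirpa-WT, against 227 and 160 CPM in the shallow knockout libraries. The groups overlapped (0.10 ± 0.19, SE; edgeR, adjusted p = 0.824), while the deep library reached 850 CPM.

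Complex II, whose 4 subunits are all nuclear-encoded, showed no call, with 2 of 4 values above 0 and a median of 0.12. Sdha, the flavoprotein that oxidises succinate, stood at 0.25 ± 0.22, and Sdhd, a membrane anchor, at 0.28 ± 0.21 (SE; edgeR, adjusted p = 0.563 and 0.455). Sdhb, the iron-sulfur subunit, had 211, 215 and 258 CPM in Sirpa-WT, against 239 and 250 CPM in the shallow knockout libraries. The Sirpa-KO values lay inside the Sirpa-WT range, with a log2 change of -0.014 ± 0.17 (SE; edgeR, adjusted p = 0.974), and the deep library had 607 CPM. Sdhc, the other anchor, stood at -0.24 ± 0.30 (SE; edgeR, adjusted p = 0.699).

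Of the 4 complex III genes, 3 passed the count filter and none was called. Uqcrc1, a core protein, had 41.3, 43.6 and 46.3 CPM in Sirpa-WT, against 59.0 and 54.4 CPM in the shallow knockout libraries, but its 15 to 20 counts per shallow library left an SE of 0.32 on a value of 0.25 (edgeR, adjusted p = 0.711). Uqcrc2, the other core protein, stood at 0.11 ± 0.24 (SE; edgeR, adjusted p = 0.848). Uqcrq, a small subunit described as ubiquinone-binding, had the lowest value after Ndufa2, -0.48 ± 0.26 (SE; edgeR, adjusted p = 0.270), from 72.9, 102 and 119 CPM in Sirpa-WT, against 67.9 and 81.6 CPM in the shallow knockout libraries, which overlapped. Uqcrfs1, the Rieske iron-sulfur protein, had 4, 2 and 7 counts against 7 and 5, under the filter. In a fit without the filter it stood at 0.36 (edgeR, adjusted p = 0.847). The deep library held 4455 counts of it.

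Cycs, the gene for somatic cytochrome c, which also triggers apoptosis when released from mitochondria, had 22, 17 and 18 counts in the Sirpa-WT libraries, compared with 29 and 38 in the shallow knockout libraries. In CPM these are 53.4, 49.4 and 52.1 against 85.6 and 103, and the deep library had 373. The groups did not overlap, and the means were 51.7 ± 2.03 CPM (SD, n = 3) and 94.5 ± 12.6 CPM (SD, n = 2). The fitted log2 change was 0.75 ± 0.28 (SE; edgeR, adjusted p = 0.0806). When counts on its processed pseudogenes were added to it, the value was 0.37. Gm10053, a copy annotated as protein-coding, was not among those added.

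Complex IV gave 3 values above 0 among 6 tested genes, a median of 0.055 and no call. Cox6c had the highest value, 0.39 ± 0.21 (SE; edgeR, adjusted p = 0.259), from 85.0, 125 and 142 CPM in Sirpa-WT, against 145 and 185 CPM in the shallow knockout libraries. Adding the counts of its copies brought it to 0.13. Cox4i1, the ubiquitous form of a regulatory subunit, had 136, 140 and 145 CPM in Sirpa-WT, and the shallow knockout libraries lay on either side, at 115 and 180 CPM. Cox5b, Cox6a1, Cox7a2 and Cox7c, further small nuclear-encoded subunits, stood between -0.14 and 0.17 (edgeR, adjusted p from 0.788 to 0.976). Cox5a had 8 to 17 counts in the shallow libraries and did not pass the filter. Without the filter it stood at 0.37 (edgeR, adjusted p = 0.798).

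All 4 complex V genes had values above 0, with a median of 0.18, and none was called. With the trend on the deep library's ratio removed Atp5a1 stood at -0.033, Atp5g1 at -0.025 and Atp5b at 0.011. Without Sirpa-KO replicate 3 Atp5b stood at 0.029, and without Sirpa-WT replicate 1 Atp5g1 stood at 0.0049. Atp5b, the catalytic beta subunit, was the most counted subunit gene, with 823, 875 and 883 CPM in Sirpa-WT, 962 and 1142 CPM in the shallow knockout libraries and 1835 CPM in the deep one. The groups did not overlap, and the log2 fold change was 0.17 ± 0.11 (SE; edgeR, adjusted p = 0.369). Atp5a1, the alpha subunit, likewise did not overlap, at 362, 346 and 405 against 469 and 454 CPM and 1165 CPM in the deep library. Its fitted value was 0.20 ± 0.14 (SE; edgeR, adjusted p = 0.452).

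Atp5o, part of the stalk that holds the catalytic head in place, had 31, 24 and 32 counts in the Sirpa-WT libraries, compared with 46 in each shallow Sirpa-KO library, or 75.3, 69.8 and 92.6 CPM against 136 and 125 CPM. The fitted log2 change was 0.60 ± 0.24 (SE; edgeR, adjusted p = 0.109), and 0.30 when the counts of its copy were added. Atp5g1, one of the genes for the proton-carrying ring subunit c, stood at 0.16 ± 0.27 (SE; edgeR, adjusted p = 0.799).

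On the TMM-scaled levels of the edgeR fit the shallow knockout libraries were both above all Sirpa-WT libraries for 7 genes, Ndufb3, Ndufb8, Uqcrc1, Cycs, Atp5a1, Atp5b and Atp5o. That is 24.1% of the 29, beside 18.1% of all genes tested. They were below for Ndufa2 alone, beside 18.8% of all genes. On CPM of the total the count above was 11, adding Ndufa1, Ndufv1, Cox5b and Cox6c, or 37.9% beside 26.3%, and Ndufa2 was still the only gene below, beside 11.8%. With the deep library counted in, the numbers above were again 7 and 11, with Ndufa2 below on both scales. The background was then 14.5% above and 16% below on TMM-scaled levels, and 20.4% above and 10.2% below on CPM.

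**Figure D2:**
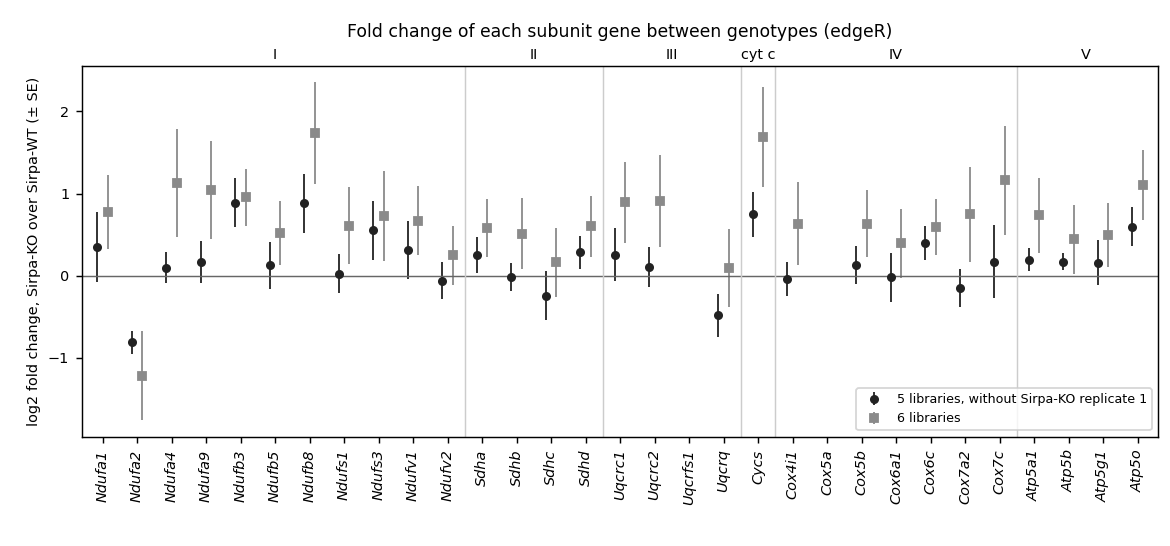
Log2 fold change of Sirpa-KO over Sirpa-WT by edgeR for each subunit gene, with its SE, from 5 libraries (black circles) and from 6 (grey squares); Uqcrfs1 and Cox5a did not pass the count filter and have no point. Ndufa2 is the lowest in both fits, at -0.81 and -1.21, and apart from it every 6-library value lies above 0 with wide errors.

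Summed by complex, the ratio of the shallow knockout mean to the Sirpa-WT mean ran from 0.956 for complex I to 1.25 for complex V. Complex I summed to 1122, 1419 and 1302 CPM in Sirpa-WT, against 1181 and 1270 CPM in the shallow knockout libraries, a ratio of means of 0.956. Without Ndufa2 the same sums were 612, 759 and 657 CPM against 838 and 868 CPM, a ratio of 1.26, and the groups no longer overlapped. Ndufa2 was called lower in these same libraries, so leaving it out had to raise the ratio, and the separation is no separate evidence. So the sum over complex I depended on a single gene.

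Complex V summed to 1314, 1352 and 1467 CPM in Sirpa-WT, against 1650 and 1801 CPM in the shallow knockout libraries, a ratio of 1.25 without overlap. Complex IV went from 547, 576 and 596 CPM to 620 and 713 CPM (ratio 1.16) and complex II from 488, 529 and 530 CPM to 552 and 639 CPM (ratio 1.15), both without overlap. On this scale 26.3% of single genes were apart in the same direction, and the median of all genes tested was 0.15 (log2). A share of single genes is no matching background for sums over several genes, for which none was computed. Complex III showed the smallest difference apart from complex I, with 240, 236 and 252 CPM in Sirpa-WT, against 260 and 250 CPM in the shallow knockout libraries (ratio 1.05), which overlapped.

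These sums are shares of the total and were not tested. Over all 31 genes the sum was 4042 ± 241 CPM in the Sirpa-WT libraries (SD, n = 3) and 4562 ± 303 CPM in the shallow knockout libraries (SD, n = 2). The deep library stood at 10203 CPM, 2.40 times the shallow mean.

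**Figure D3:**
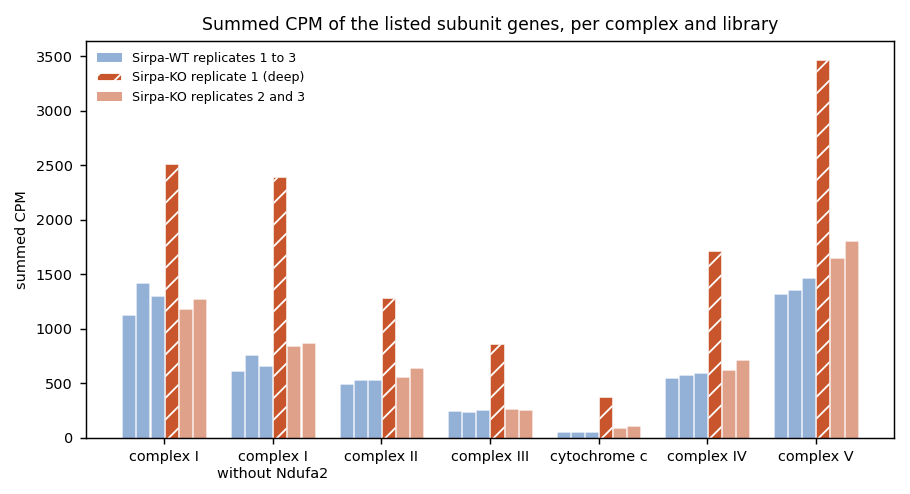
Summed CPM of the listed subunit genes per complex, 1 bar per library in the order Sirpa-WT replicates 1 to 3 (blue) and Sirpa-KO replicates 1 to 3 (red, with the deep library hatched). Leaving Ndufa2 out lowers the complex I bars of the shallow libraries, from 1122 to 612 CPM in Sirpa-WT replicate 1, and hardly that of the deep library, from 2509 to 2392 CPM.

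The deep library differed from the shallow ones by more than the genotypes did in those libraries. Of the 31 genes, 30 were above the mean of the 5 shallow libraries in it and only Ndufa2 was below, with a median log2 ratio of 1.37. Among the 29 genes that passed the filter, 22 were more than 2-fold higher (75.9%) and 1 more than 2-fold lower. Over all genes tested 35.8% were more than 2-fold higher and 36% lower, and over 3471 protein-coding genes with under 5% of their words in processed pseudogenes 46.9% were higher and 18.2% lower. The deep library lay above every shallow one for 27 of these 29 genes (93.1%), beside 50.1% of all genes tested and 64.2% of those coding genes. It lay below every shallow one for Ndufa2, beside 43.3% and 27.9%. Ndufa2 was not alone in this among subunits of these complexes. Outside the 31, the deep library was below the shallow mean for 5 of 26 other complex I subunits. The same held for 1 of 4 of complex IV, 2 of 13 of complex V and 0 of 5 of complex III. The lowest log2 ratios there were -2.99 for Ndufs5, -1.85 for Atp5l, -1.30 for Ndufa6 and -1.23 for Cox6b1. With 1 library there is no replicate check, and no test was made.

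The highest log2 ratios of the deep library over the shallow mean were 3.41 for Uqcrfs1, 2.44 for Cycs, 2.35 for Ndufb8, 2.26 for Ndufa4 and 2.17 for Cox7c. The lowest after Ndufa2 (-2.14) were 0.82 for Ndufb3, 0.91 for Ndufv2 and 0.95 for Ndufs3 and Cox6c. The order of levels per length, in CPM per kilobase of exon, changed with it. Ndufa2 was first in Sirpa-WT at 1058 ± 145 (SD, n = 3) and in the deep library, at 203, it was in place 10. Ndufa4 was second in Sirpa-WT at 339 ± 43.1 and first in the deep library at 1729.

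Atp5b (203 ± 7.6), Cox5b (176 ± 11.0) and Cox7a2 (143 ± 15.1) followed in Sirpa-WT on the same scale (SD, n = 3). The lowest were Uqcrfs1 at 8.8 ± 5.5, Ndufb8 at 8.9 ± 2.1 and Atp5g1 at 13.7 ± 3.6. In this order 25 of 30 neighbouring pairs had overlapping Sirpa-WT values and 5 did not, among them the first 4 pairs. The exon length of the annotation counts every isoform, so a gene such as Atp5g1, with 4912 bases, is set low on this scale.

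Sequence copies took a large part of the counts of some genes. Of the 31 genes, 12 were flagged because at least 5% of their 25-base words occur in annotated processed pseudogenes or because a copy of the gene stands among the counted genes. These were Ndufa4, Ndufb3, Ndufs3, Cycs, Cox5a, Cox5b, Cox6a1, Cox6c, Cox7a2, Cox7c, Atp5g1 and Atp5o. Complexes II and III had none, and 10 of the flagged genes had between them 25 copies in the files. A copy was counted where at least 10% of its words are shared with the gene. The flagged genes had a median log2 fold change over 5 libraries of 0.17 (9 of 11 above 0, none called) and the other genes 0.15 (12 of 18 above 0, 1 called).

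Cox7c shows how close a copy can be. The gene, for a small subunit of complex IV, lies on chromosome 13 (86044816 to 86046904, minus strand, GRCm38) with introns between its exons. The first 75 coding bases of the gene and its 4 copies are given from the GENCODE M21 transcripts, 5′ to 3′, to show what an aligner had to tell them apart, with capitals for bases that differ from the gene.
Cox7c: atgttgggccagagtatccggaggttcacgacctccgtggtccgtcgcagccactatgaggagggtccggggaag
Gm12338: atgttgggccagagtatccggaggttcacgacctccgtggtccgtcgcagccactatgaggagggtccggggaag
Gm10012: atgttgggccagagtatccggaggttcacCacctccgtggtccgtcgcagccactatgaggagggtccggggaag
Gm20091: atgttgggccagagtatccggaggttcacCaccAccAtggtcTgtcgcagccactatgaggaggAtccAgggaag
Gm11930: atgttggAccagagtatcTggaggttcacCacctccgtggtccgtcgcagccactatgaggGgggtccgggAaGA
Gm12338, on chromosome 11 (75599641 to 75600027, minus strand), had 0 differences here and 100% of its 25-base words in Cox7c. Gm10012 had 1 difference, Gm20091 had 6 and Gm11930 had 7.

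The counts of Cox7c itself were 13, 6 and 9 in Sirpa-WT, 11 and 11 in the shallow knockout libraries and 3701 in the deep one. Its 4 copies together had 73, 53 and 80 counts in Sirpa-WT, 78 and 74 in the shallow knockout libraries and 118 in the deep one. So the copies took 88.2% ± 2.87 of the counts of gene plus copies in the Sirpa-WT libraries (SD, n = 3) and 87.3% ± 0.41 in the shallow knockout libraries (SD, n = 2), against 3.09% in the deep library (exact Clopper-Pearson 95% interval 2.56% to 3.69%, counting error only). Gm20091, which differs at 6 of the printed bases, had 27, 17 and 36 counts in Sirpa-WT, 13 and 26 in the shallow knockout libraries and 0 in the deep library. The identical Gm12338 had 112 of the 118 counts on copies there.

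Cycs, on chromosome 6 (50562563 to 50566538, minus strand), had 8 copies among the counted genes. The first 75 coding bases are shown for the gene and 3 copies, with capitals as before.
Cycs: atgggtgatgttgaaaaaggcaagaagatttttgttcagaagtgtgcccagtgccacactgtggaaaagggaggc
Gm10053: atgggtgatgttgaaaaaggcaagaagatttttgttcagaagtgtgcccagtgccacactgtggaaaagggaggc
Gm13772: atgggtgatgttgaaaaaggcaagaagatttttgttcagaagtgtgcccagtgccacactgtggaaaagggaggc
Gm10108: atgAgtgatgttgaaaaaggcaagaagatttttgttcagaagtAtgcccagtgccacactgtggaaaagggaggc
Gm10053 (chromosome 19, 24875686 to 24876634, plus strand), annotated as protein-coding with a single exon, and Gm13772 (chromosome 2, 90804260 to 90804576, minus strand) had 0 differences in this stretch, and Gm10108 had 2.

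The 8 copies of Cycs had 284, 213 and 253 counts in Sirpa-WT, 292 and 274 in the shallow knockout libraries and 110 in the deep one, against 22, 17 and 18, then 29 and 38, and then 11153 for the gene. Their share was 92.9% ± 0.39 in the Sirpa-WT libraries (SD, n = 3), 89.4% ± 2.22 in the shallow knockout libraries (SD, n = 2) and 0.977% in the deep library (exact Clopper-Pearson 95% interval 0.803% to 1.18%). In every shallow library, then, Cycs held a small part of the counts of its family, and in the deep library nearly all. Gm15781, only 11.4% of whose words are shared with Cycs, was the most counted copy in Sirpa-WT, at 99, 67 and 66 counts, and had 2 in the deep library.

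Summed over gene and copies, Cycs stood at 743, 669 and 784 CPM in Sirpa-WT, 947 and 849 CPM in the shallow knockout libraries and 377 CPM in the deep one. The deep library was then the lowest, with a log2 ratio to the shallow mean of -1.08, where the gene alone had 2.44. Cox7c turned in the same way, from 2.17 for the gene to -0.82 for gene plus copies. The other flagged genes with counted copies remained above 0 with the copies included, from 0.23 for Ndufs3 to 1.97 for Ndufa4.

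The shares on copies of Cycs, Atp5o and Cox6c did not overlap between the genotypes in the shallow libraries, and all 3 were lower in Sirpa-KO. How often such shares were apart over all genes with copies was not computed, so this count has no background. All processed pseudogenes together went the same way, also without overlap. They took 28.7%, 28.6% and 29.7% of counts in Sirpa-WT replicates 1 to 3, against 26.6% and 26.5% in Sirpa-KO replicates 2 and 3. For Atp5o, whose copy Gm5436 lies on chromosome 12, the share was 49.2%, 52.0% and 50.8% in Sirpa-WT, 38.7% and 39.5% in the shallow knockout libraries and 0.396% in the deep one. For Cox6c it was 29.4% ± 6.53 in the Sirpa-WT libraries (SD, n = 3), 14.5% ± 0.68 in the shallow knockout libraries (SD, n = 2) and 0.216% in the deep one. The shares of Atp5o and Cox6c rest on 50 to 80 counts per shallow library, and their exact 95% intervals overlapped between the genotypes (Clopper-Pearson, for Atp5o 36.1% to 62.3% in Sirpa-WT replicate 1 and 28.4% to 51.4% in Sirpa-KO replicate 3). The intervals of Cycs overlapped too, with 89.7% to 96.0% in Sirpa-WT replicate 3 and 83.7% to 91.2% in Sirpa-KO replicate 3. Atp5g1, Ndufs3, Cox5a, Cox7a2 and Ndufa4 had 11.5% to 55.6% of their counts on copies in the shallow libraries, with overlapping groups, and at most 1.49% in the deep one. The copy of Ndufa4 had 0 counts in the deep library beside 25410 of the gene, which allows a share of up to 0.0145% (exact 95% limit). Cox5b has a coding-annotated copy, Gm11273, that had 0 counts in the shallow libraries.

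**Figure D4:**
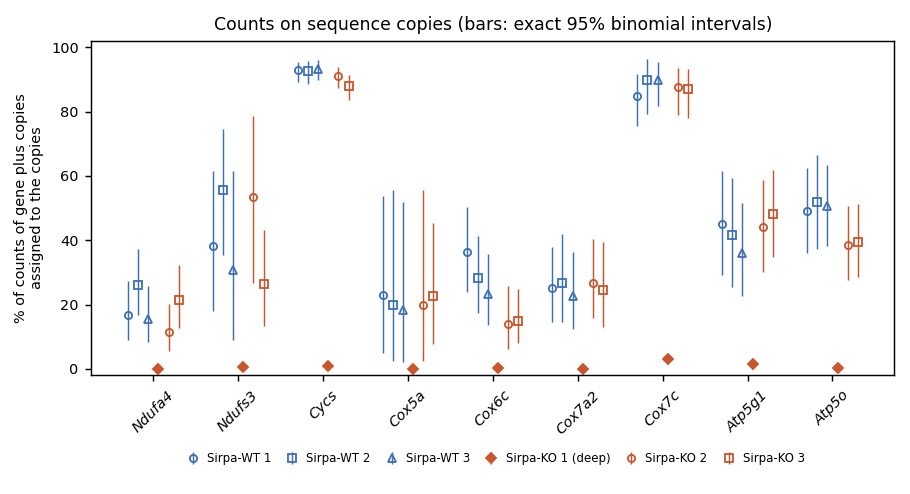
Share of the counts of a gene plus its copies that was assigned to the copies, in percent, for the 9 subunit genes with counted copies in at least 1 shallow library, with exact 95% intervals (counting error only). Blue is Sirpa-WT, open red symbols are the shallow knockout libraries, and the filled diamond is the deep library, which lies at 3.09% or less for every gene while Cycs and Cox7c lie between 84.9% and 93.4% in the shallow libraries.

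Exons of 10 of the 31 genes overlap those of another gene, and strand was not used. The overlapping genes had at most 9 counts in any shallow library. Those of Atp5o were Donson, which shares 12.7% of its exon bases and had 3, 1 and 5 counts in the Sirpa-WT libraries, compared with 3 and 8 in the shallow knockout libraries, and 2 further genes at 0 in the shallow libraries. Emc8, which shares 9.94% of the exon bases of Cox4i1, had 5 to 9 counts in the shallow libraries.

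The other subunits of the same complexes also gave few calls over 5 libraries. Of 26 other complex I subunits 22 were tested and 1 was called, Ndufb6, which fell by 0.55 ± 0.17 on the log2 scale (SE; edgeR, adjusted p = 0.0294), from 262, 305 and 284 CPM in Sirpa-WT to 230 and 190 CPM. It was 137 CPM in the deep library, again the lowest. Of these 22, 10 were above 0 and 12 below, with a median of -0.014. At an unadjusted p under 0.05, 4 of them were lower and 0 higher by edgeR, where 11.9% of all genes tested were lower and 8.95% higher. None was called of 5 other complex III subunits, 4 of complex IV and 12 of complex V that passed the filter, with medians of 0.044, -0.049 and 0.27. Their most abundant members, Uqcrh, Cox6b1 and Atp5j, stood at 0.24, -0.18 and -0.13 (edgeR, adjusted p from 0.363 to 0.763).

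With 4.52% of all genes called lower, 1 call in a list of this size, or in those that follow, is near the background. Of 41 assembly factors 15 were tested and 1 was called, Uqcc2, needed for complex III, which fell by 0.62 ± 0.21 (log2, SE; edgeR, adjusted p = 0.0445). Of 16 citric acid cycle genes 14 were tested and 1 was called, Suclg1, a subunit of succinyl-CoA synthetase, which fell by 0.45 ± 0.13 (log2, SE; edgeR, adjusted p = 0.0210). Of 13 mitochondrially encoded subunit genes 10 were tested, and mt-Co1, the catalytic core of complex IV, fell by 0.51 ± 0.07 (log2, SE; edgeR, adjusted p = 2.35e-09). Among 12 regulators of mitochondrial biogenesis only Tfam and Gabpa passed the filter and neither was called. None of 9 tissue-restricted or hypoxia-induced subunit forms passed it. Over 6 libraries none of these lists had a called gene.

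Upstream sequence was available for 23 of the 31 genes as 300-base RefSeq windows (GRCm38.p6, 250 bases before to 50 after the start). Nuclear respiratory factor 1 (NRF-1) is a known activator of respiratory chain genes, and its motif (GCGCA, any base, then GCGC, sought on both strands) was found in 5 of the 23 windows (21.7%), those of Sdha, Sdhd, Uqcrc1, Cox6a1 and Atp5o. The same search found it in 1254 of 17492 genes (7.17%). None of these 5 genes was called between the genotypes, and Ndufa2 had no window. The stretch of Cox6a1 is shown as an example, with its 2 matches in capitals (chr5:115349066-115349165, minus strand).
Cox6a1: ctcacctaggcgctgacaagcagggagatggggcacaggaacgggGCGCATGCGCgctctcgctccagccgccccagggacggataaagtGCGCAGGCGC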

How the data were processed

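The authors deposited raw counts, fragments per gene, for 3 Sirpa-WT and 3 Sirpa-KO libraries. Per the file headers, featureCounts 1.5.1 counted read pairs on the exons given by Ensembl release 75 (GRCm38), with no strand option, although the kit was stranded. Alignment used STAR 2.6.0, per the submitters' processing notes. Group and replicate were read from the titles of the samples. The 31 genes, the other gene lists, the rule for naming genes (all members, and of each other list the called genes or the most abundant one) and the alternatives were chosen with earlier results of these data known.

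Genes passing filterByExpr (minimum count 10) were scaled by TMM and tested, 2-sided, with edgeR 4.0.16 (glmQLFit with robust=TRUE, glmQLFTest; R 4.3.3) on the whole table, with and without Sirpa-KO replicate 1, with Benjamini-Hochberg adjustment and a threshold of 0.05. Symbols, exons and transcripts came from GENCODE M21, matched by gene identifier (37607 of 39179 genes). Copies were found by 25-base words shared with a multi-exon gene. The fits were also run on simulated data, whose results are not given here. That run is not taken as a check of the fit with Sirpa-KO replicate 1, where the libraries differed far more. The fitted variation between libraries of a group (edgeR, biological coefficient of variation) was 75.8% with that library and 7.25% without it. Alternatives were RLE or library-size scaling, no filter, 1 CPM in 3 libraries, DESeq2 1.42.0, a replicate block and protein-coding genes only. Others were processed pseudogene counts added to the parent gene, a trend (lowess, span 0.3) on the ratio of the deep library removed, and leaving out each library. Pairs of shallow replicates were further apart than counting alone would put them (chi-square over its degrees of freedom 1.18 to 1.64), so none was merged as a library deposited again, though the spread may still be technical. The study's single-cell data were not analysed here. A summed level of leukocyte markers is not reported here.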

Additional observations from a re-analysis of the deposited data

How the results depend on the processing

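Over 5 libraries Ndufa2 was called lower under all 14 alternatives. Called-higher genes appeared under 2: library-size scaling gave 4 (Ndufb3 1.02, Cycs 0.89, Atp5b 0.31 and Atp5o 0.74, edgeR adjusted p 0.0179 to 0.0496), and leaving out each library in turn gave 0 to 1, the 1 being Ndufb3 without Sirpa-WT replicate 2. The median change of the subunit genes was 0.31 with library-size scaling, -0.064 with the trend on the deep library's ratio removed, and 0.069 to 0.20 over the fits that left out a library. The cause of these moves was not tested. Over 6 libraries 0 to 1 genes were called lower when a library was left out, the 1 being Ndufa2 without Sirpa-KO replicate 1, and the median ranged from 0.17 to 0.78. Scaling moved the median of all genes there from 0.11 (TMM) to -0.038 (RLE) and 0.36 (library size), and that of the subunit genes from 0.63 to 0.44 and 0.94.

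Correlations of the deviations of same-numbered libraries from their group means were 0.024, -0.042 and 0.058 over 6 libraries. The Sirpa-KO mean there includes the deep library, and over 5 libraries the deviations of Sirpa-KO replicates 2 and 3 mirror each other. These correlations therefore could not decide whether replicate numbers pair the libraries. With the replicate number as a block over 5 libraries, edgeR called 316 genes in place of 322 and the same 1 subunit gene, Ndufa2, at -0.93, with a median of 0.17 over the subunit genes. Over 6 libraries the block left 0 called and a median of 0.54.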
